A study of Rattus norvegicus with 8 samples.

Results

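The genes followed here through the intestinal epithelium of rats given different waters are 9 genes of connective tissue, namely *Col1a1*, *Col1a2*, *Col3a1*, *Col6a1*, *Sparc*, *Dcn*, *Lum*, *Vim* and *Fn1*. They are a named set that serves as a measure of stroma (the tissue under the epithelium) carried into the detached cells, drawn up with earlier results of these arrays known. The 9 genes stand among 14217 measured genes and take 12 of 31099 probe sets, and all 9 are among the 9258 genes bright enough to be tested. In the comparisons with TW, 0 of the 9 genes passed the test, where the share passing among all tested genes was 0.0108% in WR, 0% in DSW1200 and 1.91% for SeW. By the brightest probe set of each gene, all 9 (8 after median centring of the arrays) had a higher mean in WR than in TW. The median difference was 0.69 on the log2 scale (0.14, with 6 genes higher, when TW replicate 2 was left out). Each gene, however, differed more between the 2 arrays of some group than between any pair of group means. The same was true of 55.2% of all tested genes. Within a group the spread ran the same way for most of the 9 genes.

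Fibroblasts of the intestinal lamina propria lie just beneath the epithelium and lay down its collagenous matrix. Types I and III collagen form fibrils, type VI collagen forms fine beaded filaments between them, and small leucine-rich proteoglycans regulate how the fibrils assemble. Enterocytes make little of this matrix themselves, and a preparation of loosened epithelial cells can bring fibroblasts, vessels and immune cells along.

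The study asked how drinking deep-sea water or selenium water acts on the duodenal and intestinal epithelium of the rat. Wistar rats aged 4 months (females, by the methods) made up all groups, with 2 arrays each: WR (water restriction of 12 h by the labels, while the methods also mention a longer restriction beside the array data), DSW1200 (deep-sea water with a hardness of 1200, desalted, for 3 days), SeW (selenium water for 3 days) and the control TW (tap water for 3 days). Epithelial cells of the proximal small intestine were loosened with dithiothreitol and EDTA, vortexed and passed through a nylon mesh, and their RNA was hybridised to a 3' expression array of the rat. The fraction is therefore defined by how easily cells come loose, with no sort for a cell type. The sources do not say whether the 2 arrays of a group come from separate rats, so p-values measure only the spread between these arrays, which may be technical, and the small number of arrays limits the precision. With 2 against 2 arrays an exact permutation test (two-sided) cannot go below p = 0.333, so the tests given are those of limma across all genes.

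Array quality differed before any result. The median deposited signal was 9 and 8 on the WR arrays, 6.1 and 7 on the DSW1200 arrays, 11.1 and 10.6 on the SeW arrays, and 8.4 and 4.3 on the TW arrays, so TW replicate 2 and DSW1200 replicate 1 were the dimmest. TW replicate 2 also differed most from the rest over all probe sets. Its Pearson correlations of log2 normalized signal with the other arrays were 0.902 to 0.911, where pairs without it gave 0.920 to 0.949. The ratio of 3' to 5' beta-actin signal, which is higher where RNA is degraded or copied short, ran from 10.9 to 13.6 in SeW and from 20.6 to 32.8 on the arrays of the other groups. All 8 epithelial markers were measured well enough to be tested, and their summed normalized signal lay within 16354 to 19179 on all 8 arrays. The normalization gives every array the same set of values, so this range does not measure the epithelial content. Of 8 fibroblast markers (5 of them among the 9 genes), 7 could be tested and *Pdgfrb* was dim. Values below are normalized signals on a linear scale, made comparable between arrays by quantile normalization, and differences are on the log2 scale.

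Promoter sequences of RefSeq (build GRCr8) were found for 5 of the 9 genes. The stretches below are shown because these 2 promoters hold both motifs searched, TATAAA and CCAAT, on either strand without overlap between them. The 9 genes varied together across the arrays, but *Col1a2* and *Vim* did so weakly. Their Pearson correlation was 0.38 over the 8 arrays, against a median of 0.68 over all pairs of the 9 genes. Capitals mark the motifs, with ATTGG as the reverse complement of CCAAT. The *Col1a2* stretch (chr4:33518316-33518412, plus strand, starting at -241 from the annotated start) and the *Vim* stretch (chr17:81577097-81577204, plus strand, starting at -164) each run from before the CCAAT motif to after the TATAAA motif.
Col1a2: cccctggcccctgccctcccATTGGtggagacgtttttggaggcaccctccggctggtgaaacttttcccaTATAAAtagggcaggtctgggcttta
Vim: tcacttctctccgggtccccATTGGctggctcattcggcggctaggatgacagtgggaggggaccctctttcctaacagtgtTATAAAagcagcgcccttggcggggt
Of the 5 promoters, 2 held TATAAA, 3 held CCAAT and 2 held both. Over all 33469 promoters of the same length the shares were 14.2%, 37.5% and 5.66% in that order. A match is a run of letters only, and binding was not measured here.

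The fibrillar collagens come first. *Col1a1* encodes the alpha 1 chain of type I collagen, the main fibril former of connective tissue. Its signal was 23.2 and 18.4 in WR, 19.0 and 21.1 in DSW1200, 19.0 and 23.7 in SeW, and 30.2 and 9.61 in TW. The 2 TW arrays gave both the highest and the lowest value of the 8, and every other array lay between them. The differences from TW were 0.28 in WR, 0.23 in DSW1200 and 0.32 in SeW, each with a standard error of 0.48 and with adjusted p = 0.866, 0.896 and 0.768 (limma).

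*Col1a2* encodes the partner alpha 2 chain of the same trimer. Its signal was 37.1 and 24.8 in WR, 14.7 and 34.4 in DSW1200, 21.0 and 20.4 in SeW, and 15.0 and 14.7 in TW. Both WR arrays and both SeW arrays lay above both TW arrays, while DSW1200 held one array at the TW level and one near the top. This was the only gene of the 9 whose TW arrays nearly coincided. The mean difference from TW was 1.03 in WR (SE 0.41, 95% interval 0.12 to 1.93, adjusted p = 0.498 by limma), 0.60 in DSW1200 (adjusted p = 0.678 by limma) and 0.48 in SeW (adjusted p = 0.561 by limma).

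*Col3a1* encodes type III collagen, the fibrillar collagen of loose and distensible tissue. Its signal was 151 and 126 in WR, 85.2 and 175 in DSW1200, 112 and 113 in SeW, and 138 and 63.0 in TW. The SeW arrays almost coincided, the highest array was in DSW1200 and the lowest in TW, and all groups overlapped TW. The differences from TW were 0.57 in WR, 0.39 in DSW1200 and 0.27 in SeW (SE 0.39 each), with adjusted p from 0.639 to 0.763 (limma).

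*Col6a1* encodes an alpha chain of type VI collagen, which links fibrils to cells and basement membrane. Its signal was 44.9 and 33.2 in WR, 17.0 and 32.4 in DSW1200, 28.7 and 23.7 in SeW, and 44.1 and 11.7 in TW. TW replicate 1 nearly matched the highest value, in WR, and TW replicate 2 was the lowest of the 8 arrays, the widest spread of the gene in any group. The log2 differences from TW were 0.77 in WR, 0.05 in DSW1200 and 0.20 in SeW (SE 0.55 each, adjusted p from 0.654 to 0.982 by limma). With so uneven a TW pair the linear means gave another order: 24.7 ± 10.9 in DSW1200 and 26.2 ± 3.53 in SeW, against 27.9 ± 22.9 in TW (SD, n = 2 each).

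*Sparc* encodes osteonectin, a secreted protein that binds collagen and guides its deposition. Its signal was 38.3 and 29.4 in WR, 23.2 and 29.1 in DSW1200, 26.6 and 33.2 in SeW, and 39.4 and 27.8 in TW. Both WR arrays lay above both DSW1200 arrays, every other pair of groups overlapped, and this gene had the smallest difference of the 9 between WR and TW. Its differences from TW were 0.02 in WR, -0.35 in DSW1200 and -0.15 in SeW (SE 0.28 each, adjusted p from 0.710 to 0.985 by limma), and the 95% interval of the WR difference ran from -0.61 to 0.66.

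The small proteoglycans *Dcn* (decorin) and *Lum* (lumican) bind collagen fibrils and limit their width. They are neighbouring genes on chromosome 7 of the rat. *Dcn* gave 30.9 and 42.8 in WR, 10.9 and 39.7 in DSW1200, 15.1 and 32.1 in SeW, and 28.9 and 13.3 in TW. Both WR arrays lay above both TW arrays, and DSW1200 alone held both the lowest and the second highest value. The differences of *Dcn* from TW were 0.89 in WR (SE 0.61, adjusted p = 0.641 by limma), 0.09 in DSW1200 and 0.17 in SeW.

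*Lum* gave 92.4 and 37.5 in WR, 33.0 and 88.2 in DSW1200, 27.7 and 39.0 in SeW, and 53.5 and 25.1 in TW. One WR array and one DSW1200 array stood well above the remaining arrays, and all groups overlapped. Its differences from TW were 0.69 in WR, 0.56 in DSW1200 and -0.16 in SeW (SE 0.55 each, adjusted p from 0.690 to 0.907 by limma).

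*Vim* encodes vimentin, the intermediate filament of mesenchymal cells, which immune and endothelial cells carry as well. Its signal was 53.0 and 62.9 in WR, 48.4 and 44.3 in DSW1200, 39.3 and 47.4 in SeW, and 50.6 and 30.2 in TW. Both WR arrays were above all 6 other arrays. The difference of WR from TW was 0.56 (SE 0.27, 95% interval -0.04 to 1.17, adjusted p = 0.542 by limma), against 0.24 for DSW1200 and 0.14 for SeW.

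*Fn1* encodes fibronectin, an adhesive glycoprotein that cells use to anchor to the matrix. Its signal was 36.4 and 39.2 in WR, 15.7 and 41.9 in DSW1200, 13.1 and 20.2 in SeW, and 26.6 and 9.39 in TW. The WR arrays were close together and lay above both TW arrays and both SeW arrays, while DSW1200 replicate 2 was the highest of all. It had the largest mean difference of the 9 genes between WR and TW, 1.26 (SE 0.55, 95% interval 0.03 to 2.49, adjusted p = 0.506 by limma). The differences from TW were 0.70 in DSW1200 (adjusted p = 0.702 by limma) and 0.04 in SeW (adjusted p = 0.974 by limma), and the linear means of SeW and TW ran the other way, 16.7 ± 4.99 and 18.0 ± 12.1 (SD, n = 2 each).

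**Figure D1:**
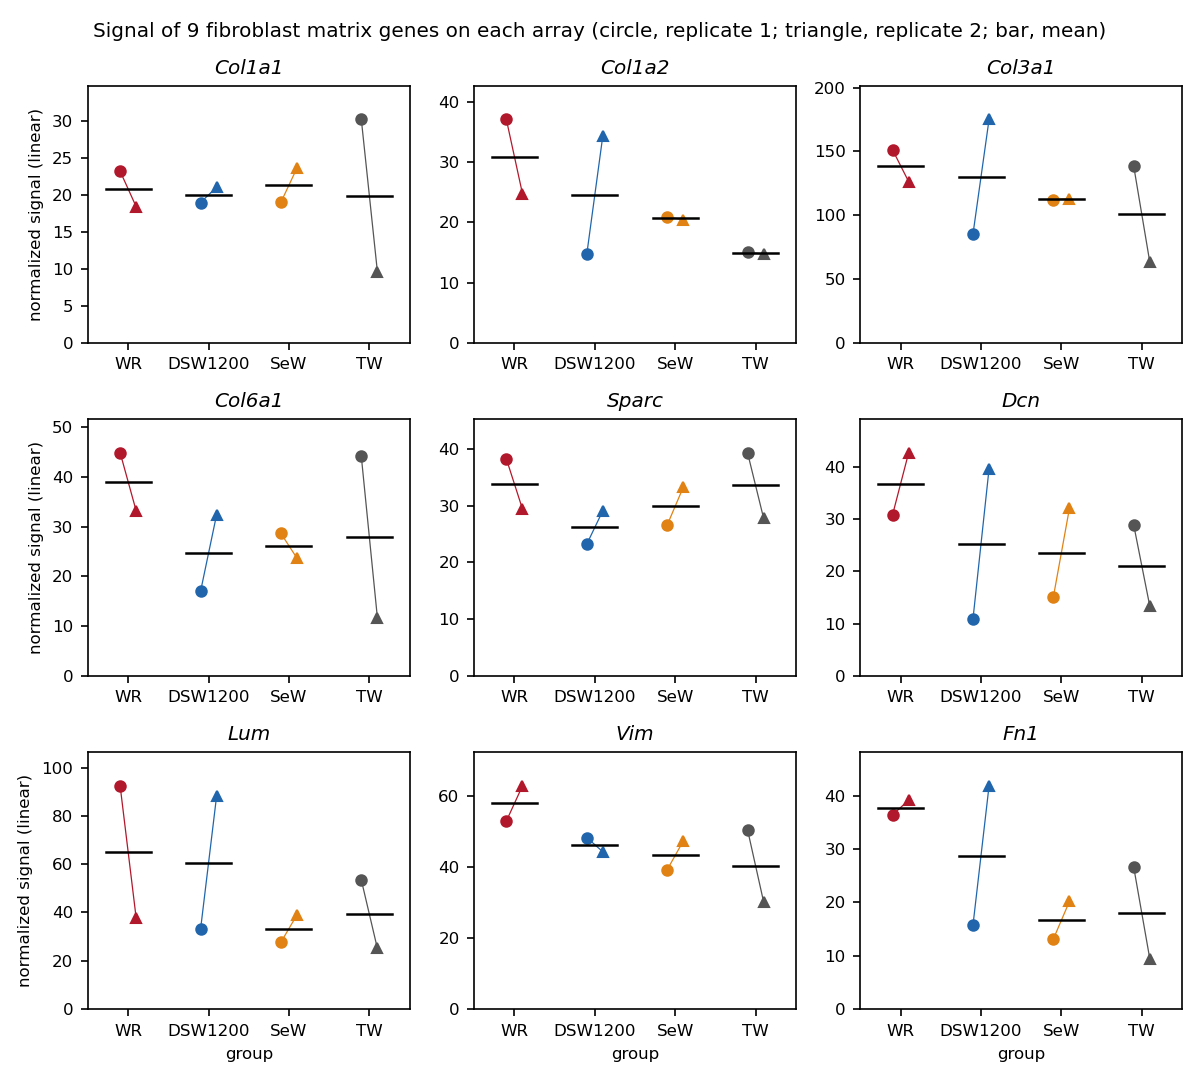
Normalized signal (linear axis) of each of the 9 genes on each array, by group; circles are replicate 1, triangles replicate 2, thin lines join the 2 arrays of a group and bars are their mean. For *Fn1* both WR arrays (36.4 and 39.2) lie above both TW arrays (26.6 and 9.39), while for *Col6a1* the TW pair alone spans 44.1 to 11.7.

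Ordered by mean log2 signal, WR was the highest group for 8 of the 9 genes (the highest group for 21.4% of all tested genes) and TW the lowest for 7 (23.1% of all tested genes). After median centring these counts were 7 and 8, and with the values as deposited 5 and 8. *Col1a1* was highest in SeW, *Sparc* was lowest in DSW1200 and *Lum* was lowest in SeW. DSW1200 lay second for *Col1a2*, *Col3a1*, *Lum*, *Vim* and *Fn1*. No pair of neighbouring groups in these orders differed past the threshold where it was tested, and for each of the 9 genes the largest gap between the 2 arrays of a group exceeded the whole range of the 4 group means. The same was true of 55.2% of all tested genes. For *Col6a1* the largest gap was 1.92 against a range of group means of 0.77, and for *Col1a1* it was 1.65 against 0.32, both on the log2 scale.

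The comparison of WR with TW asks how water restriction, of 12 h by the labels, affected the fraction. Read by their brightest probe sets, all 9 genes had a mean above TW in WR, where 48.9% of all tested genes had a higher mean. The dimmer probe set of *Col1a1* stood below TW, at -0.23. The median difference of the 9 genes was 0.69 against -0.01 over all tested genes. After median centring in place of quantile normalization the count was 8 of 9, since *Sparc* then stood at -0.01. Counted from the median of all tested genes, 9 of the genes in WR lay above TW, 8 of those in DSW1200 and 7 of those in SeW, under quantile normalization, median centring and the deposited values alike. At the adjusted threshold 0 of 9 genes were called by limma, against 0.0108% of all tested genes. Before adjustment *Col1a2* and *Fn1* had p under 0.05, against 9.7% of all tested genes. Arrays did not overlap for *Col1a2*, *Dcn*, *Vim* and *Fn1*, all higher in WR (18.4% of all tested genes). The direction depended on TW replicate 2: without it 6 of the genes stood above TW and the other three under it (median 0.14), and without TW replicate 1 all 9 were above (median 1.13). Without WR replicate 1 the count was 8 of 9 (median 0.55). In this bulk fraction more cells of a type and more RNA per cell cannot be told apart.

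In DSW1200 against TW, 8 of the 9 genes had the higher mean and *Sparc* the lower, with a median difference of 0.24 against -0.02 over all tested genes, of which 47.6% were higher. Every gene overlapped between the 2 groups (16.6% of all tested genes were higher in DSW1200 without overlap). The number called was 0 of 9, against 0% of all tested genes, and 0 of 9 had an unadjusted p under 0.05 (limma), against 7.92% of all tested genes. The 95% intervals show what these arrays leave possible: that of *Vim* ran from -0.36 to 0.85 and that of *Dcn* from -1.28 to 1.45. Here the direction turned with the array left out in either group. Without DSW1200 replicate 2 only 2 genes were above TW and 7 below (median -0.13), and without DSW1200 replicate 1 the counts were 8 and 1 (median 0.91). Without TW replicate 2 only 2 genes were above TW and 7 below (median -0.18), and without TW replicate 1 they were 8 and 1 (median 0.96). With the beta-actin ratio as a covariate 6 genes were above TW and 3 below, and *Col1a2* stood at 1.26, *Dcn* at 0.83 and *Lum* at 1.45 (adjusted p = 0.999 for each by limma). Both DSW1200 ratios lay above both TW ratios, so this fit separates ratio and group poorly.

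In SeW against TW, 7 genes had the higher mean and *Sparc* and *Lum* the lower, with a median difference of 0.17 against -0.04 over all tested genes, of which 46.5% were higher. After median centring, or with the values as deposited, all 9 were above TW. Arrays did not overlap for *Col1a2* alone (22.1% of all tested genes did not overlap in that direction). At the adjusted threshold limma called 0 of 9 genes, against 1.91% of all tested genes, and 0 of 9 had an unadjusted p under 0.05, against 19.6% of all tested genes. Without TW replicate 2 a single gene, *Col1a2*, was above TW and 8 were below (median -0.40), and without TW replicate 1 all 9 were above (median 0.73). Without SeW replicate 1 all 9 were above (median 0.28), and without SeW replicate 2 they split into 5 above and 4 below (median 0.0060). SeW was also the group with the lowest beta-actin ratios and the brightest deposited arrays. With the beta-actin ratio as a covariate *Col1a2*, *Col3a1*, *Dcn* and *Fn1* turned below TW, which left 3 genes above and 6 below (median -0.64). The SeW ratios (10.9 to 13.6) did not overlap those of the other groups (20.6 to 32.8). The fit therefore separates ratio and group poorly, and no conclusion is drawn from its signs. *Col1a2* then stood at -0.90 (adjusted p = 0.816 by limma), *Sparc* at -0.67 (adjusted p = 0.822 by limma) and *Lum*, which moved the most, at -2.00 (adjusted p = 0.692 by limma). With the values as deposited, the median of all tested genes stood 0.92 higher in SeW than in TW. On that scale *Col1a2* (1.47), *Col3a1* (1.28) and *Vim* (1.17) passed the threshold, as did 4395 of all 9257 tested genes.

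**Figure D2:**
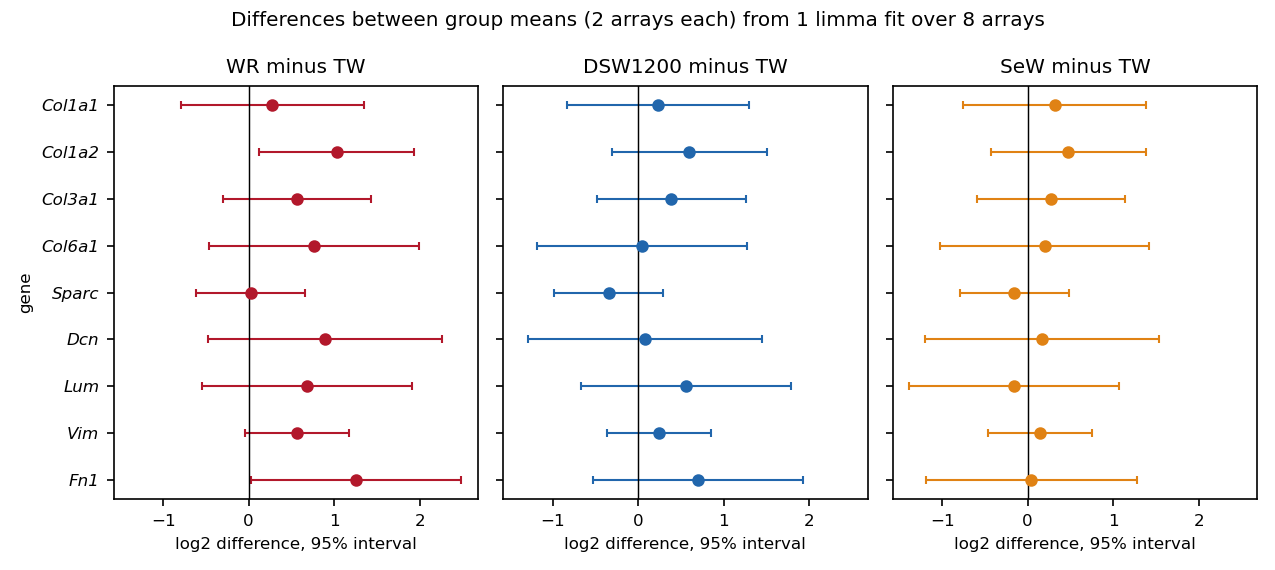
Difference of each group from TW on the log2 axis for the 9 genes, with points for the difference of the means of 2 arrays each and bars for its 95% interval from limma. Every interval includes 0 apart from those of *Col1a2* (0.12 to 1.93) and *Fn1* (0.03 to 2.49) in WR, which are not adjusted for the number of genes.

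Between SeW and DSW1200, 4 genes were higher in SeW and 5 lower, with a median difference of -0.10 (-0.04 over all tested genes, of which 46.9% were higher). The count higher in SeW was 7 after median centring and 9 with the values as deposited, where all genes shifted by 0.84. Limma called 0 of 9 genes, against 2.72% of all tested genes, with 0 of 9 below an unadjusted p of 0.05, against 20% of all tested genes. The widest differences were those of *Lum* (-0.71) and *Fn1* (-0.66), whose DSW1200 arrays were far apart. The moderated F test over the 3 comparisons with TW called 0 of the 9 genes and 0.616% of all tested genes, with 0 of the 9 and 17.6% of all tested genes below 0.05 before adjustment. Its smallest adjusted p among the 9 was 0.402 for *Fn1*. These comparisons share the TW arrays and are not independent of each other.

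The spread within groups followed a pattern. In TW, replicate 1 was above replicate 2 for all 9 genes (48.4% of all tested genes), and for 6 of them by more than 2-fold (10.4% of all tested genes). The median gap was 1.12 on the log2 scale, and the exception in size was *Col1a2* with 0.03. After median centring the count was 8 of 9, and relative to the median of all genes it was 9 under each of quantile normalization, median centring and the deposited values. These counts use the brightest probe set of each gene. The dimmer one of *Col1a1* ran the other way in TW (5.15 and 18.8).

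In DSW1200 it was replicate 2 that stood higher, for 8 of 9 genes (replicate 1 was higher for 46.4% of all tested genes), by more than 2-fold for 5 of them (8.46% of all tested genes). The median gap was -1.04, written as replicate 1 minus replicate 2, and *Dcn* had the widest at -1.86. *Vim* was the exception with 0.13. With the values as deposited the count was 9 of 9. The dimmer *Col1a1* probe set again ran the other way (13.0 and 7.68).

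WR and SeW arrays lay closer together. In WR 6 genes were higher in replicate 1 (48.3% of all tested genes) and 3 in replicate 2, with a median gap of 0.34, and only *Lum* was over 2-fold apart (4.86% of all tested genes). In SeW 2 genes were higher in replicate 1 (53.5% of all tested genes) and 7 in replicate 2, with a median gap of -0.32, and only *Dcn* was over 2-fold apart (3.65% of all tested genes). With the values as deposited these counts were 7 and 2 in WR and 3 and 6 in SeW.

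**Figure D3:**
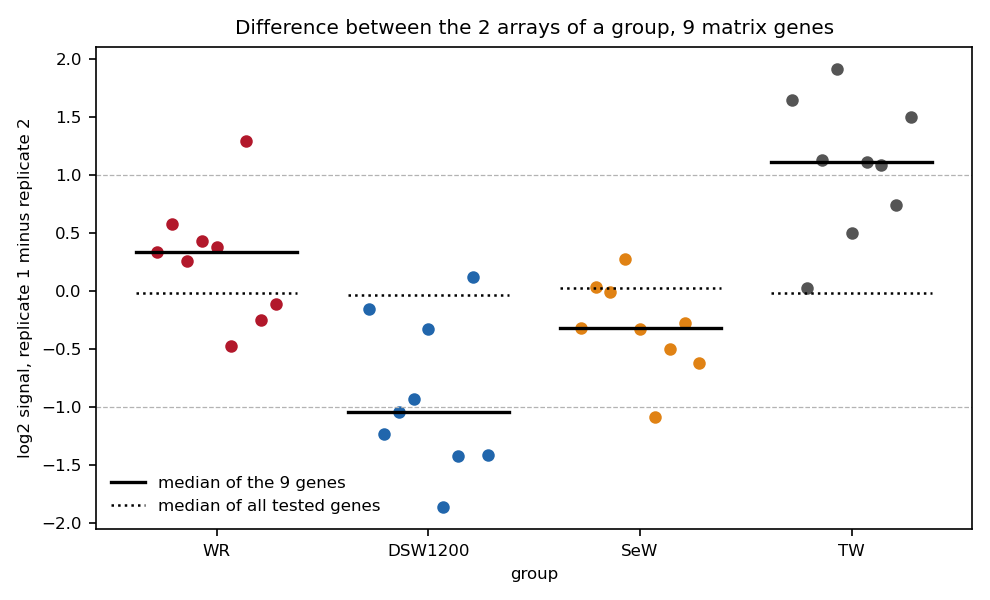
Log2 signal of replicate 1 minus replicate 2 in each group, with 1 point per gene, a solid bar at the median of the 9 genes and a dotted bar at the median of all tested genes; dashed lines mark a 2-fold gap. All TW points lie above 0 (median 1.12, and 8 of 9 after median centring). All DSW1200 points but that of *Vim* lie below 0 (median -1.04), while the dotted bars stay near 0. Points are the brightest probe sets, and the dimmer one of *Col1a1* ran the other way in TW and DSW1200.

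Taken by array, TW replicate 2 was the lowest of the 8 for 6 genes (17.5% of all tested genes were lowest there) and DSW1200 replicate 1 for the other three (14.5%). These are the arrays with the lowest deposited medians, 4.3 and 6.1. The median deviation of the 9 genes from their own mean was 0.39 and 0.21 on the WR arrays, -0.44 and 0.60 on the DSW1200 arrays, -0.20 and -0.03 on the SeW arrays, and 0.27 and -0.84 on the TW arrays. Over all tested genes the same median stayed between -0.03 and 0.06 after normalization. Beta-actin ratios were 32.8 and 27.1 on the DSW1200 arrays and 24.1 and 20.6 on the TW arrays, so the low array had the higher ratio in DSW1200 and the lower one in TW. The same ratio for GAPDH was higher on the low array in both groups, at 3.86 and 3.00 on the DSW1200 arrays and 2.66 and 3.08 on the TW arrays. It was 2.35 and 2.73 on the WR arrays and 1.80 and 1.82 on the SeW arrays. The part of array brightness and RNA quality in the pattern was not tested.

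The 9 genes went up and down together across the arrays. All 36 pairs of the 9 genes had a positive Pearson correlation of log2 signal over the 8 arrays, from 0.27 to 0.91 with a median of 0.68. The arrays share their depth and brightness, so these values are descriptions of this set of arrays. Among genes outside the 9, those most like the mean profile of the 9 over the 8 arrays were *Vcam1* (Pearson 0.97), *Fxr2* (0.97), *Serpinh1* (0.96), *Rassf5* (0.95), *Apeg3* (0.95), *Htra1* (0.95), *Serpinb6b* (0.93) and *Hoxb3* (0.92). They are the closest of all tested genes by construction. *Fxr2* encodes an RNA-binding relative of the fragile X protein, *Rassf5* a protein that binds active Ras, and *Hoxb3* a homeobox transcription factor.

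*Serpinh1*, the collagen chaperone of the endoplasmic reticulum, gave 19.1 and 16.0 in WR, 11.1 and 20.6 in DSW1200, 14.8 and 14.6 in SeW, and 18.5 and 8.80 in TW. *Vcam1*, an adhesion receptor of activated endothelium and stromal cells, gave 49.0 and 39.2 in WR, 21.8 and 40.0 in DSW1200, 23.2 and 26.0 in SeW, and 41.5 and 16.1 in TW. *Htra1*, a secreted serine protease, gave 56.1 and 39.9 in WR, 29.2 and 54.7 in DSW1200, 31.1 and 32.6 in SeW, and 36.7 and 15.8 in TW. Each of these had the low TW replicate 2 and the split DSW1200 pair of the mean profile of the 9 genes, for likeness to which they were picked. Not all of the 9 had both: *Col1a2* lacked the TW gap and *Vim* the DSW1200 split.

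Of the 9 genes, 3 have a second, dimmer probe set annotated to the same gene. For *Col1a2* the dimmer one (1370155_at) gave 21.6 and 21.2 in WR, 9.65 and 19.6 in DSW1200, 16.8 and 22.6 in SeW, and 16.4 and 11.1 in TW. It followed the brighter one (1387854_at) with a Pearson correlation of 0.73 over the 8 arrays. WR was again above TW on all arrays, by 0.67 (SE 0.41, adjusted p = 0.618 in limma's fit of all probe sets).

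The 2 probe sets of *Col1a1* ran against each other, with a Pearson correlation of -0.67. The dimmer one (1388116_at) gave 5.06 and 13.9 in WR, 13.0 and 7.68 in DSW1200, 9.64 and 17.1 in SeW, and 5.15 and 18.8 in TW, so that its TW gap had the opposite direction to the brighter one (1370864_at, 30.2 and 9.61). The pair of *Sparc* correlated at 0.32, and its dimmer probe set (1367562_at) gave 20.9 and 2.71 in TW. The direction of the *Col1a1* gap in TW therefore holds for 1 probe set and not the other. The sign of the *Col1a1* difference of WR from TW turned as well, from 0.28 with the brighter probe set to -0.23 (SE 0.72) with the dimmer one. For *Sparc* the dimmer probe set stood above TW by 0.40 in WR, 0.41 in DSW1200 and 0.83 in SeW (SE 0.81 each). Its brighter one gave 0.02, -0.35 and -0.15 in that order. Of the 12 probe sets 0 passed the threshold in any comparison.

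**Figure D4:**
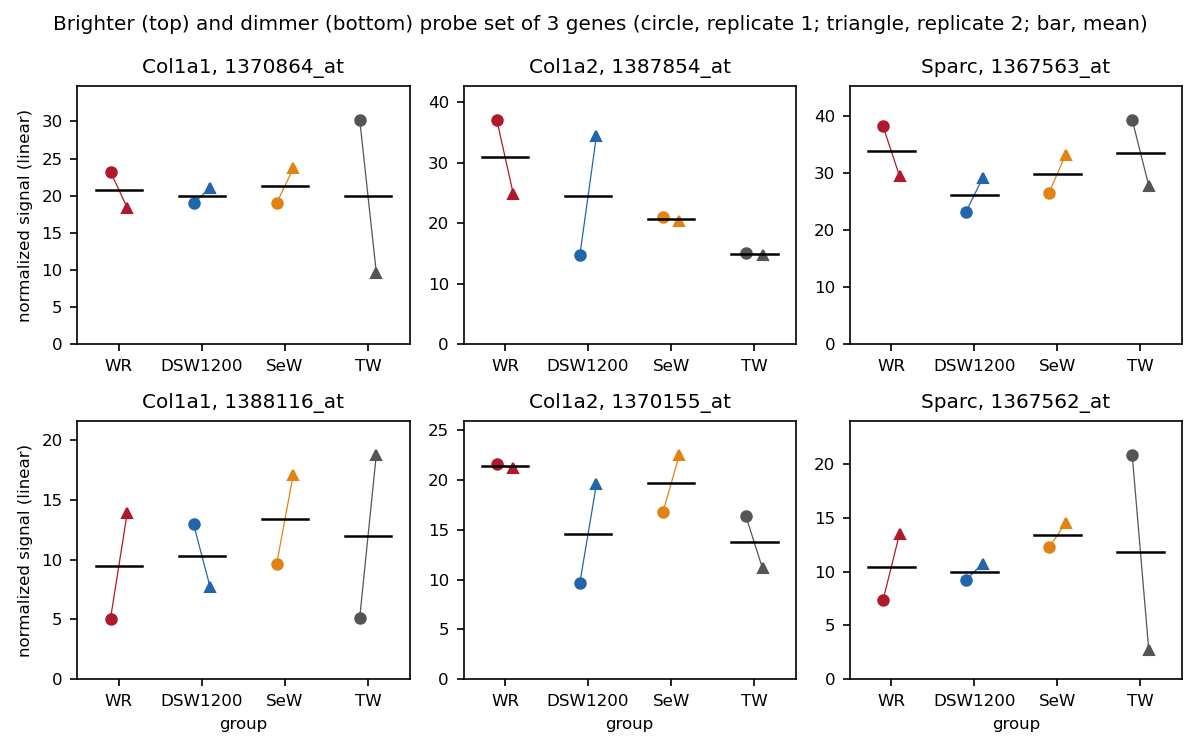
Normalized signal (linear axes) of the brighter (top) and dimmer (bottom) probe set of *Col1a1*, *Col1a2* and *Sparc* on each array, with circles for replicate 1, triangles for replicate 2 and bars for the mean. In TW the brighter *Col1a1* probe set is higher on replicate 1 (30.2 against 9.61) and the dimmer one on replicate 2 (18.8 against 5.15).

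Further matrix genes were grouped in lists. Of 12 other fibrillar and fibril-associated collagens 7 could be tested, and 0 were called in any comparison. All 7 had a higher mean in WR than in TW (median 0.46), where 48.9% of all tested genes did. The count was also 7 after median centring and as deposited, the latter beside a shift of 0.38 over all tested genes. How far it depends on TW replicate 2 was not tested. The medians were 0.14 in DSW1200 and -0.14 in SeW, the last of which was 0.05 after median centring. *Col12a1*, a fibril-associated collagen, gave 18.4 and 10.3 in WR, 11.0 and 9.14 in DSW1200, 12.2 and 16.0 in SeW, and 10.8 and 5.16 in TW. *Col11a1*, a minor fibrillar collagen, differed from TW by -1.59 in DSW1200 (adjusted p = 0.617 by limma) and -1.49 in SeW (adjusted p = 0.231 by limma).

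The enzymes and chaperones that process collagen come next. Of 13, 8 were tested and 0 called, and their medians against TW were -0.10 in WR, -0.05 in DSW1200 and 0.10 in SeW (-0.04 in SeW after median centring). *P4ha1*, a catalytic subunit of prolyl 4-hydroxylase, gave 28.5 and 21.9 in WR, 17.6 and 17.2 in DSW1200, 11.5 and 10.2 in SeW, and 41.0 and 17.7 in TW, and both SeW arrays lay below all other arrays. Its difference of SeW from TW was -1.31 (adjusted p = 0.121 by limma).

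Among 20 other matrix proteoglycans and glycoproteins 10 were tested, with medians against TW of 0.07 in WR, -0.15 in DSW1200 and 0.06 in SeW. In WR 5 of them were above TW and 5 below, and in SeW 6 and 4. *Fbn1* (fibrillin 1, the core of elastic microfibrils) was 0.70 above TW in WR and 0.63 above it in SeW (adjusted p = 0.557 and 0.388 by limma). *Fbln5* ran the other way, at -0.61 in WR and -2.35 in SeW (adjusted p = 0.837 and 0.178 by limma), with SeW replicate 2 at the floor of 1. Of 12 basement membrane genes 10 were tested, with medians of 0.33, -0.01 and 0.08 in the same order of groups. *Nid2*, a nidogen that links laminin with type IV collagen, gave 52.1 and 30.6 in WR, 42.3 and 67.8 in DSW1200, 87.1 and 109 in SeW, and 71.0 and 58.9 in TW. The SeW arrays were the highest and the WR arrays were below both TW arrays, with differences of 0.59 (adjusted p = 0.327 by limma) and -0.70 (adjusted p = 0.513 by limma). *Lamb1*, a laminin chain, was 0.64 above TW in WR (adjusted p = 0.542 by limma).

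Of 12 matrix proteases and their inhibitors 7 were tested, with medians against TW of 0.36 in WR, -0.04 in DSW1200 and 0.12 in SeW. *Mmp2*, a gelatinase made by fibroblasts, gave 33.6 and 21.4 in WR, 18.5 and 22.8 in DSW1200, 12.8 and 14.6 in SeW, and 16.8 and 11.1 in TW. Both WR arrays lay above both TW arrays, by 0.97 on average (SE 0.36, adjusted p = 0.480 by limma). Of 15 genes of TGF-beta and matrix signalling 9 were tested, with medians of 0.12, -0.05 and -0.18 for WR, DSW1200 and SeW, and that of WR was -0.07 after median centring. *Ccn2*, a matricellular target of TGF-beta, differed from TW by -1.15 in WR (adjusted p = 0.506 by limma) and by -1.41 in SeW (adjusted p = 0.164 by limma).

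Genes that mark fibroblasts by identity rather than matrix (18 listed, 9 tested) had medians against TW of 0.38 in WR, 0.28 in DSW1200 and 0.18 in SeW, with 0 called. *Pdgfra*, the platelet-derived growth factor receptor of subepithelial fibroblasts, gave 46.6 and 56.4 in WR, 26.1 and 58.0 in DSW1200, 35.9 and 40.3 in SeW, and 33.5 and 20.6 in TW. It had the low TW replicate 2 and the split DSW1200 pair, and its WR difference was 0.96 (SE 0.38, adjusted p = 0.498 by limma). *Il33*, an alarmin of stromal and epithelial cells, gave 24.4 and 59.4 in WR, 72.8 and 16.5 in DSW1200, 58.4 and 88.5 in SeW, and 18.1 and 14.0 in TW, so that its DSW1200 arrays were split the other way. *Dpep1* differed from TW by 0.38 in WR, 0.28 in DSW1200 and 0.47 in SeW, with adjusted p from 0.198 to 0.674 (limma). Its WR and DSW1200 differences are the medians of this list. Its mean signal of 568 was far above that of every other tested gene of the list (*Pdgfra* next, at 37.6). Which cells its signal came from was not tested.

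**Figure D5:**
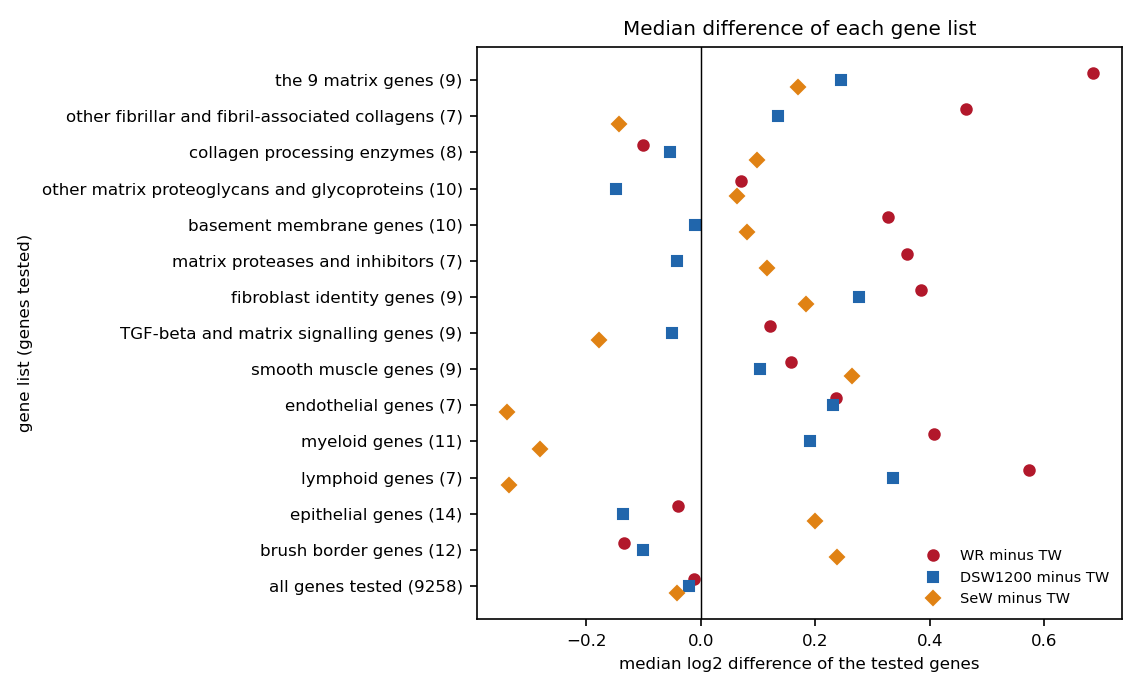
Median log2 difference from TW of the tested genes in each list (number tested in parentheses) for WR, DSW1200 and SeW; the bottom row gives all 9258 tested genes. The 9 matrix genes have the rightmost WR point (0.69), and for the immune and endothelial lists the SeW points lie on the left (from -0.28 to -0.34; above 0 with the values as deposited).

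Markers of cell types were summed over all their measured genes, dim ones included. The sum of the 8 fibroblast markers, which include 5 of the 9 genes, was 410 and 323 in WR, 200 and 435 in DSW1200, 239 and 285 in SeW, and 323 and 162 in TW. *Thy1*, a surface marker of fibroblasts outside the 9 genes, gave 16.8 and 7.78 in WR, 1.44 and 10.6 in DSW1200, 6.48 and 12.5 in SeW, and 12.1 and 8.63 in TW. Myeloid markers (6 measured, 5 bright enough to test) summed to 307 and 283 in WR, 243 and 269 in DSW1200, 125 and 160 in SeW, and 266 and 183 in TW. Lymphoid markers (5 measured, 3 tested) summed to 100 and 114 in WR, 90.0 and 107 in DSW1200, 70.1 and 71.5 in SeW, and 122 and 59.0 in TW. The fibroblast, myeloid and lymphoid sums were all lower on TW replicate 2 than on TW replicate 1. They were also lower on DSW1200 replicate 1 than on DSW1200 replicate 2, where the myeloid and lymphoid steps were smaller than the fibroblast step. The myeloid step in DSW1200 came from *C1qa* (110 and 153) and *Tyrobp* (25.6 and 29.1). *Cd68*, *Csf1r*, *Aif1* and *Cd14* were higher on DSW1200 replicate 1. *Pdgfrb* and *Cd3d* in DSW1200 and *Tyrobp* in TW also ran against their sums.

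Endothelial markers (4 measured and tested) summed to 67.9 and 62.4 in WR, 54.1 and 66.4 in DSW1200, 45.1 and 36.4 in SeW, and 74.9 and 43.8 in TW. Smooth muscle markers (6 measured, 4 tested) summed to 92.2 and 58.2 in WR, 70.1 and 90.2 in DSW1200, 85.8 and 89.9 in SeW, and 63.5 and 54.5 in TW. The endothelial and smooth muscle sums were thus also lower on TW replicate 2 and on DSW1200 replicate 1. Single markers ran the other way: *Tek* and *Cnn1* in TW, *Vwf*, *Kdr* and *Des* in DSW1200, and *Tagln* in both groups. Of 4 enteric glial markers 3 were measured and 0 were bright enough to test, and *Gfap* lay at the floor of 1 on both TW arrays. The myeloid marker *Cd14* also lay at that floor on both TW arrays. The part of other stromal cells in the signal of the 9 genes was not tested.

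The wider lists of those cells gave the same counts of calls as the matrix genes against TW, 0 each. Medians against TW for WR, DSW1200 and SeW were 0.41, 0.19 and -0.28 for 11 tested myeloid genes, 0.57, 0.34 and -0.34 for 7 lymphoid genes, 0.24, 0.23 and -0.34 for 7 endothelial genes and 0.16, 0.10 and 0.27 for 9 smooth muscle genes. In the F test *Gzma* and *Gzmb*, granzymes of cytotoxic lymphocytes, passed with adjusted p = 0.0456 and 0.0404 (limma). Both were called lower in SeW than in DSW1200, by differences of -1.28 (adjusted p = 0.0204 by limma) and -1.18 (adjusted p = 0.0325 by limma), as 2 of the 7 lymphoid genes. *Gzmb* gave 150 and 115 in WR, 95.4 and 94.2 in DSW1200, 35.7 and 49.0 in SeW, and 78.2 and 90.5 in TW, and both SeW arrays lay below all others.

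Epithelial genes set the other side of the fraction. The 14 tested epithelial genes had medians of -0.04, -0.14 and 0.20 against TW in the same order of groups, and the 12 tested brush border genes had -0.13, -0.10 and 0.24. After median centring the WR medians of both lists were -0.35 and -0.46, with 1 of 14 and 1 of 12 genes above TW, and the SeW medians were -0.03 and -0.02. With the values as deposited the WR medians were 0.15 and 0.03. On that scale the WR and SeW medians of every list were above 0, beside shifts of 0.38 and 0.92 over all tested genes. *Cldn7*, a claudin of the basolateral membrane, gave 352 and 541 in WR, 459 and 451 in DSW1200, 1163 and 958 in SeW, and 815 and 931 in TW, and passed the F test (adjusted p = 0.0404 by limma). It was called higher in SeW than in DSW1200, by 1.21 (adjusted p = 0.0235 by limma). *Enpep*, glutamyl aminopeptidase of the brush border, was the single gene of these lists called against TW, 0.84 higher in SeW (adjusted p = 0.0286 by limma). *Epcam*, an adhesion molecule of all epithelial cells, lay within 4163 to 4502 on all 8 arrays. Quantile normalization gives every array the same set of values, so this narrow range does not measure how even the epithelial content was.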

How the data were processed

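RNA of loosened intestinal epithelial cells was measured on 8 rat Affymetrix arrays, 2 each for WR, DSW1200, SeW and TW. The authors deposited 1 linear intensity per probe set and array, made with MAS5 by the submitters' processing notes. Its version and its scaling target are not given in the sources used here. The methods name quantile normalization, but the deposited arrays have unequal medians, so they were normalized here. Arrays were quantile normalized over all probe sets, then converted to log2 with a floor of 1. At the floor lay 18.0% of all values and 0.0810% of tested values, with 0 values of the 9 genes among them. A fold change of a dim gene is understated by this floor.

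Probe sets were named through the platform annotation: 20826 have 1 gene (20758 by Entrez number, 68 by the array's symbol), 436 have several, 9780 have none and 57 are controls. RefSeq gave current symbols. The brightest probe set stood for each of 14217 genes, and the 9258 genes brighter on average than the median probe set (6.69) entered the tests. Per-sample columns left unused numbered 0.

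The comparisons used limma 3.58.1 in R 4.3.3, as 1 linear model over 8 arrays (4 residual degrees of freedom) with group as its only term, an intensity trend and Benjamini-Hochberg adjustment over the tested genes at 0.05. The median standard error of a log2 difference of WR from TW was 0.264. The procedure was tested on simulated data. Alternatives were the deposited values, median centring, no filter, a stricter filter (70th percentile), an offset of 32, the mean of probe sets, all probe sets, no trend, a replicate block, a fit of only the compared groups, the beta-actin ratio as a covariate, each array left out and the 2-fold criterion of the methods.

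The genes and gene lists were chosen with earlier results of these data known. Named genes are the 9 in every comparison with all their probe sets, at most 3 tested genes of each list (smallest F test p) and the 8 tested genes closest to the mean profile of the 9. The markers *Epcam*, *Thy1*, *Pdgfrb*, *Gfap* and *Cd14* were added outside this rule after their values were seen.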

Additional observations from a re-analysis of the deposited data

How the results depend on the processing

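The count of the 9 genes called stayed at 0 in all 4 contrasts and the F test under all alternatives run, with 2 exceptions. In SeW against TW with the values as deposited 3 genes passed (*Col1a2* 1.47, *Col3a1* 1.28 and *Vim* 1.17), as did 4395 of all 9257 tested genes. The median of all tested genes then stood 0.92 higher than in TW, against 0.38 in WR and 0.05 in DSW1200. The 2-fold criterion without a test took *Col1a2* and *Fn1* in WR against TW (2 genes, and 444 of all 9258 tested genes). The F test has no value under the 2-fold criterion or with only the arrays compared. The stricter filter left 5 of the 9 genes (*Col3a1*, *Col6a1*, *Sparc*, *Lum* and *Vim*). *Col1a1*, *Col1a2*, *Dcn* and *Fn1* were too dim for it and were not tested under that setting.

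Signs of single genes turned under these settings. With the values as deposited *Sparc* stood at 0.87 and *Lum* at 0.89 in SeW against TW. After median centring *Sparc* was at -0.0056 in WR, and *Sparc* (0.022) and *Lum* (0.041) were above TW in SeW. An offset of 32 gave -0.038 for *Col6a1* in DSW1200 and -0.020 for *Fn1* in SeW. The mean of probe sets gave 0.029 for *Sparc* in DSW1200 and 0.34 in SeW. The beta-actin ratio as a covariate gave -0.20 for *Col6a1* and -0.0067 for *Vim* in DSW1200, and -0.90 for *Col1a2*, -0.010 for *Col3a1*, -1.37 for *Dcn* and -0.64 for *Fn1* in SeW. The ratios of DSW1200 and of SeW did not overlap those of TW, so the covariate fit separates ratio and group poorly. The cause of these turns was not tested.

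Leaving out 1 array at a time, differences from TW ran in WR from -0.55 to 1.10 for *Col1a1*, -0.19 to 1.72 for *Col6a1* and -0.23 to 0.27 for *Sparc*, in DSW1200 from -0.60 to 1.06 for *Col1a1*, -0.019 to 1.21 for *Col1a2*, -0.18 to 0.96 for *Col3a1*, -0.91 to 1.01 for *Col6a1*, -0.85 to 1.02 for *Dcn*, -0.15 to 1.27 for *Lum*, -0.13 to 0.62 for *Vim* and -0.050 to 1.45 for *Fn1*, and in SeW from -0.51 to 1.14 for *Col1a1*, -0.30 to 0.84 for *Col3a1*, -0.76 to 1.16 for *Col6a1*, -0.40 to 0.10 for *Sparc*, -0.39 to 0.73 for *Dcn*, -0.70 to 0.39 for *Lum*, -0.23 to 0.51 for *Vim* and -0.71 to 0.79 for *Fn1*. An array left alone in its group was assumed to vary like the other groups. The smallest adjusted p of any of the 9 genes was 0.0829 (limma, without TW replicate 1).

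Counts over all tested genes moved more. WR against TW had 1 call, 3 as deposited, 0 with no filter and 0 with no trend. SeW against TW had 177, and 4395 as deposited, 42 once median centred, 12 unfiltered, 64 for probe set means, 1 with no trend, 26 when limited to the compared groups and 0 with the covariate. SeW against DSW1200 had 252, and in the same order 3740, 70, 19, 141 and 1, then 0 with the covariate. The F test had 57, and 2766 as deposited, 1 with no filter, 92 with the offset, 18 with the mean of probe sets, 87 with all probe sets, 0 with no trend and 0 with the covariate. The 2-fold criterion took 444 genes in WR, 394 in DSW1200, 630 in SeW and 574 in SeW against DSW1200. Leaving out 1 array gave 0 to 220 calls in WR, 0 to 131 in DSW1200, 2 to 518 in SeW, 3 to 437 in SeW against DSW1200 and 2 to 406 in the F test.

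With the replicate number as a block, 0 of the 9 genes were called, and the counts over all genes were 114 in SeW against TW, 116 in SeW against DSW1200 and 22 in the F test. Deviations of arrays with the same number correlated between groups from -0.06 to 0.04, so the numbers were not taken to pair the arrays.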
